A study of Mus musculus with 35 samples.

Results

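The core histone genes are the protein-coding genes for histones H2A, H2B, H3 and H4 that lie in clusters and are transcribed when DNA is replicated. They were chosen by symbol on GRCm38: 57 carried a current symbol beginning with H2ac, H2bc, H3c or H4c and a number. A further 4 fitted through an older name only, namely H2bu2 and H2aw on chromosome 11, H4f16 on chromosome 6 and H4bc24 on chromosome 13, whose older name makes it an H2B gene. That gave 61 of 21627 protein-coding genes on the autosomes and X, of which 18 were H2A, 18 H2B, 12 H3 and 13 H4 genes.

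Each nucleosome holds core histones of all 4 families, and dividing cells must make them in step with new DNA. The genes are short and mostly lack introns, and their mRNAs end in a stem loop in place of a poly(A) tail, which the stem-loop binding protein Slbp recognises. Npat, at histone locus bodies, drives their transcription in S phase, and oocytes store histones for the first divisions of the embryo.

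Histone marks were mapped in female mouse germ cells by CATCH-seq, chromatin immunoprecipitation of nuclease-cut native chromatin with carrier DNA, suited to few cells. H3K4me3 marks promoters and, in oocytes, also wide domains. H3K27me3 is the mark of Polycomb repression and H3K36me3 lies over transcribed gene bodies. Stages c7 (oogonia-like cells), c13 and c34 (both oocyte-like cells), which the cell type labels write with a d4 prefix, were grown from the embryonic stem cell line H18 with the reporters Prdm1-mVenus and Dppa3-ECFP. E18.5 oocytes came from mice with both of these reporters, and germinal vesicle (GV) oocytes, the full-grown stage before meiosis resumes, came from BDF1 mice. All groups were labelled wild type. There were 13 deposited peak lists, 1 for each stage and mark, with c7 mapped for H3K27me3 only. The labels named 9 H3K4me3, 9 H3K27me3, 8 H3K36me3 and 9 input libraries. The GV lists of H3K4me3 and H3K27me3 rest on 1 library each. With 1 list each, replicate spread is unknown, differences are given as description and there is no p-value. Read depth was unknown.

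The call for H3K4me3 and for H3K27me3 needed a peak no farther than 1 kb from the first or last base of the gene. The call for H3K36me3 needed peaks over at least 20% of the gene's annotated length. H3K4me3 peaks had edges at multiples of 1 kb and those of the other marks at multiples of 10 kb. Since 55 of the 61 genes were under 1 kb long, a single peak of the coarser marks usually took in several of them whole. Genes under the same peak are therefore not separate observations. In comparisons of stages, members are given as counts out of 61 and all protein-coding genes as percents. Markers of germ cells, oocytes and meiosis (Ddx4, Dazl, Mael, Nobox, Figla, Sohlh1, Sycp3 and Stra8) were checked against the labels: 8 of 8 were called for H3K4me3 in c13, c34 and GV oocytes and 7 at E18.5, without Stra8. Of 5 ovarian somatic markers, 4 were called for H3K4me3 at each of these stages, and H3K27me3 called 5, 5, 5, 4 and 3 in c7, c13, c34, E18.5 and GV. Of the 8 germ cell, oocyte and meiosis markers, H3K27me3 called 4, 6, 3, 1 and 3 in the same order. H3K36me3 called 7, 6, 3 and 5 of the germ cell markers and 5, 2, 1 and 4 of the somatic ones in c13, c34, E18.5 and GV. Of all protein-coding genes, H3K4me3 called 71.7%, 66.7%, 61.3% and 74.8% and H3K36me3 67.8%, 63.4%, 22.1% and 62.2% in that order. H3K27me3 called 46.0%, 60.2%, 43.7%, 39.1% and 28.3%, with c7 first. With shares this high over all genes, the H3K4me3 calls at these few markers are a weak check of the labels. Peak calls at somatic markers do not measure how many somatic cells were present, and their part in the results was not tested.

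Members within 250 kb of each other formed 5 groups. The chromosome 3 block, chr3:96219885-96270192, held 10 genes. Chromosome 11 held the pair H2bu2 and H2aw at chr11:58948911-58955192, and H4f16 stood alone at chr6:136803993-136804431. Chromosome 13 held 22 genes in block 1, chr13:21715711-22043658, and 26 in block 2, chr13:23531044-23934913. Within these blocks the genes lay in 5 runs with no more than 50 kb between neighbours. Run 1 went from H2bc13 to H4bc24 with 17 genes and run 2 from H2ac12 to H2bc11 with 5, both in block 1. Run 3 went from H4c8 to H2bc6 with 14 genes and run 4 from H2ac6 to H3c1 with 10. Run 5 was the pair H2bc1 and H2ac1, which encode the germ cell variants TH2B and TH2A. Positions are those of the RefSeq gene table of GRCm38.p6.

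Promoter sequences of 56 members, in 57 windows of 300 bases, were taken from RefSeq on GRCm38.p6. H2bc21, H4c14, H3c7, H2bc4 and H3c1 were not analysed for sequence. 3 motifs were searched on both strands: TATAAA, the TATA box, CCAAT, the CCAAT box, and ATTTGCAT, the octamer bound by POU factors such as Pou2f1. The motifs share no search rule and were counted separately even where they touch. TATAAA was found in 31 of 57 windows (54.4%), against 12.7% of 21044 windows of all protein-coding genes. CCAAT was found in 48 (84.2%), against 38.5%, and ATTTGCAT in 14 (24.6%), against 1.68%. The families differed in which letters they held. All 18 H2A, 17 H2B and 10 H3 windows held CCAAT, against 3 of 12 H4 windows. The octamer was in 7 H2A and 7 H2B windows and in no H3 or H4 window. TATAAA was in 11 H2A, 8 H2B, 4 H3 and 8 H4 windows. A match is only a match of letters, not a bound site. The windows were poorer in CpG and GC than those of all genes, with medians of 11 against 13 CpG and 45.0% against 56.7% GC. In 20 windows the sequence overlapped that of a member on the other strand, as at divergent H2A and H2B pairs. A match in such an overlap counts in both windows, so the counts are not all of separate sites. The octamer, for example, was in both windows of H2ac1 with H2bc1, H2ac8 with H2bc8 and H2ac12 with H2bc12.

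The first 3 sequences below are promoters that carried H3K4me3 at every stage mapped: an H3 gene of run 4, the germ cell H2A variant and the lone H4 gene. The other 3 are H2bc23 and H4c17, which missed calls, and H4c18, a near copy of H4c17 that was called at every stage. Each runs 5′ to 3′ along the gene's strand and ends at the base before the annotated start, in lower case with matches to the motifs, on either strand, in capitals. H3c2 is chr13:23752095-23752344, plus strand; H2ac1 is chr13:23934187-23934436, plus; H4f16 is chr6:136804432-136804681, minus. H2bc23 is chr13:21810200-21810366, minus, cut at 167 bases where the divergent gene H2ac23 begins. H4c17 is chr13:21811496-21811745, plus, and H4c18 is chr13:21832198-21832447, minus.
H3c2: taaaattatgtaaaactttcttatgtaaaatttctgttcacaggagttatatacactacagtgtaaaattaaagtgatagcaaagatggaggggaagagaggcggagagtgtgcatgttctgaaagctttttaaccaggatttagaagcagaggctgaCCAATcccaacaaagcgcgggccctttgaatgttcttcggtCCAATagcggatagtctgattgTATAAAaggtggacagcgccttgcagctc
H2ac1: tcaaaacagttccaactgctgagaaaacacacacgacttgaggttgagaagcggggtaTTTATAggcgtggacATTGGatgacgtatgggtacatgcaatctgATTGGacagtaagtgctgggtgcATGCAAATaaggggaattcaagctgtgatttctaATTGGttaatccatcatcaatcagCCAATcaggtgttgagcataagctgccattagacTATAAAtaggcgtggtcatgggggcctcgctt
H4f16: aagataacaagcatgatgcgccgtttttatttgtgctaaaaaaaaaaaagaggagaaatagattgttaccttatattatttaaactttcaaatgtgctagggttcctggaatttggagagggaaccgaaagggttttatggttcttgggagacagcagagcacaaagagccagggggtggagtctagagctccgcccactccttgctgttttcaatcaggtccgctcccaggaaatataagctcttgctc
H2bc23: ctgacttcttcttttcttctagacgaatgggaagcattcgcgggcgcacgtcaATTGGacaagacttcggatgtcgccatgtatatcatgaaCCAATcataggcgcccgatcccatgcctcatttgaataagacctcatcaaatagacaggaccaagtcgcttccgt
H4c17: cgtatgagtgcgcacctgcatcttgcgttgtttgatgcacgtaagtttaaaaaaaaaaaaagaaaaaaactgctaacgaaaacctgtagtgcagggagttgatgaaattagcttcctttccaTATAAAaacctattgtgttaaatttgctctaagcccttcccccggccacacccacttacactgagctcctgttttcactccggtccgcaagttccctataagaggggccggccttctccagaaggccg
H4c18: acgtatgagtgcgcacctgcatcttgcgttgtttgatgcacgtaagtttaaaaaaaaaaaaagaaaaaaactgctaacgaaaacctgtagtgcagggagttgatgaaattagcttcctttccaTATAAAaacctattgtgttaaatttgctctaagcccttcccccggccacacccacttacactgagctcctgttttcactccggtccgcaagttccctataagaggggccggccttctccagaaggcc
H3c2 had a TATAAA match beginning 29 bases before its start and 2 CCAAT matches. H2ac1 had 2 TATAAA, 4 CCAAT and 1 octamer match. H4f16 had none of the 3. H4c17 and H4c18 shared a run of 249 bases, the same letters displaced by 1 base.

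H3K4me3 was called at nearly all core histone genes. In c13 it was called at 59 of 61, against 71.7% of all protein-coding genes. In c34 it was called at 58, against 66.7%, in E18.5 oocytes at 57, against 61.3%, and in GV oocytes at 56, against 74.8%. Short genes as a whole were called less often than genes at large: of 1440 protein-coding genes under 1 kb, 12.3%, 11.2%, 9.51% and 22.7% were called at these stages. The members called lay under 22, 19, 25 and 11 separate peaks in c13, c34, E18.5 and GV. Between c34 and GV, 2 members were called in c34 and not GV (H2ac24 and H4bc24), against 2.76% of all genes, and 0 in GV and not c34, against 10.8%. Between c13 and E18.5 the same 2 were called in c13 and not E18.5, against 11.1%, and 0 the other way, against 0.731%. H4c17 was the 1 gene called in c13 and not c34, against 9.2%, with 0 the other way, against 4.27%. It was also the 1 gene called at E18.5 and not GV, against 3.72%, with 0 the other way, against 17.2%. In all, 56 members were called at each of the 4 stages, a pattern shared by 54.9% of all protein-coding genes.

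**Figure D1:**
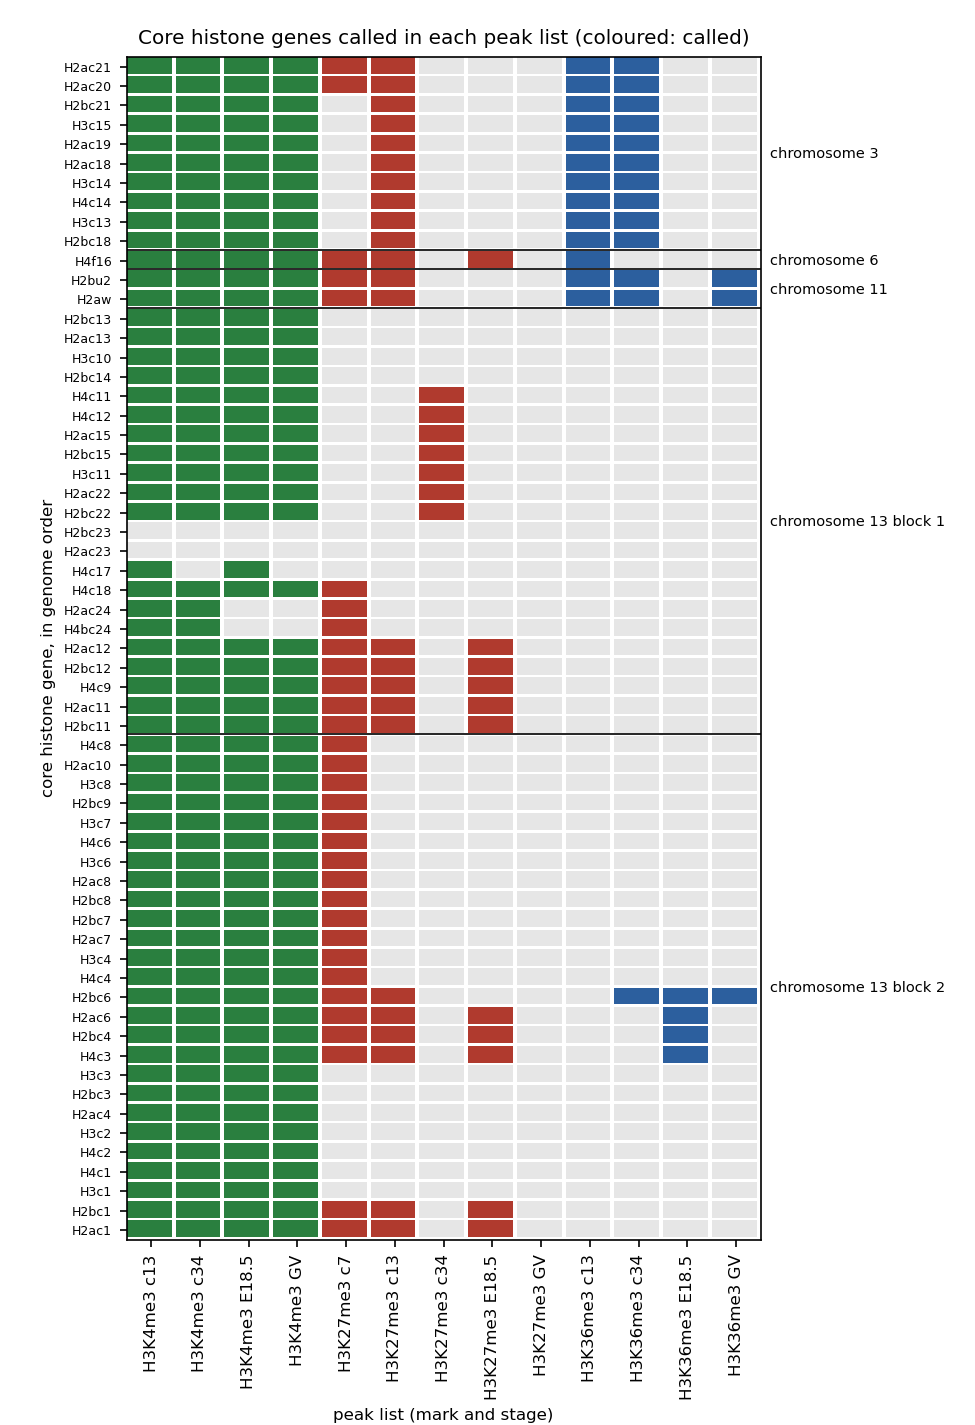
Calls of the 61 core histone genes (rows, in genome order) in the 13 peak lists (columns, mark and stage); coloured cells are called and grey cells are not. H3K4me3 fills nearly every row, the H3K27me3 column of GV oocytes is empty, and H3K36me3 is called at 13 genes or fewer at each stage.

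By family, H3 was complete at every stage, with 12 of 12 genes called. Of the H3 genes, H3c1, H3c2, H3c3, H3c4, H3c6, H3c7 and H3c8 lie in block 2, whose 26 genes were all called at all 4 stages. The chromosome 3, 6 and 11 genes were likewise all called at all 4 stages. Block 1 held the exceptions, with 20, 19, 18 and 17 of its 22 genes called in c13, c34, E18.5 and GV.

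The 5 exceptions, H2bc23, H2ac23, H4c17, H2ac24 and H4bc24, are neighbours at the end of run 1, among which only H4c18 was called at all 4 stages. H2bc23 and H2ac23 were called in none of the 13 lists. The nearest H3K4me3 peak to H2ac23 lay 1.083 kb away in c13 and at E18.5, just outside the window, and 17.083 and 10.083 kb away in c34 and GV. For H2bc23 the distances in c13, c34, E18.5 and GV were 1.802, 17.802, 1.802 and 10.412 kb. H4c17 had a peak of 3 kb in c13 and in E18.5 oocytes, while the nearest lay 15.851 kb away in c34 and 8.851 kb away in GV. This peak beside all 3 genes, present in c13 and at E18.5, was thus in neither the c34 nor the GV list. H2ac24 and H4bc24 differed by a single step of the grid. The nearest peak ended 0.024 kb from H2ac24 in c13 and c34 and 1.024 kb from it in E18.5 and GV. For H4bc24 it was 0.743 against 1.743 kb.

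These 5 genes have near copies within run 1. In 12 of the 57 promoter windows, runs of 50 bases also occurred in the window of a member elsewhere. All the runs of H2bc23 and H4bc24 were shared (100%), as were 94.0% of those of H4c17 and H4c18, 86.9% of those of H2ac23 and 73.3% of those of H2ac24. The others were H3c14 and H3c15 (74.1%), H2ac18 and H2ac19 (67.7%), and H4c11 and H4c12 (11.6%). Of these 12 windows, 7 belonged to members called at all 4 stages. Of the 45 windows that shared none, all 45 did. How reads with several places in the genome were treated is not given in the sources used here, and the part of shared sequence in these calls was not tested.

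The width of the H3K4me3 peaks separated the stages more than the calls did. At called members the median peak was 14 kb wide in c13, 22 kb in c34, 12 kb at E18.5 and 97 kb in GV oocytes. Over all called protein-coding genes the medians were 9, 9, 6 and 19 kb. The number of members under peaks of 50 kb or more was 0 in c13, against 10.7% of all called genes, and 7 of 58 in c34 (12.1%), against 0.7%. It was 0 at E18.5, against 0.00755%, and 47 of 56 in GV (83.9%), against 15.6%. These 47 genes lay under few peaks, since all 56 shared 11.

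**Figure D2:**
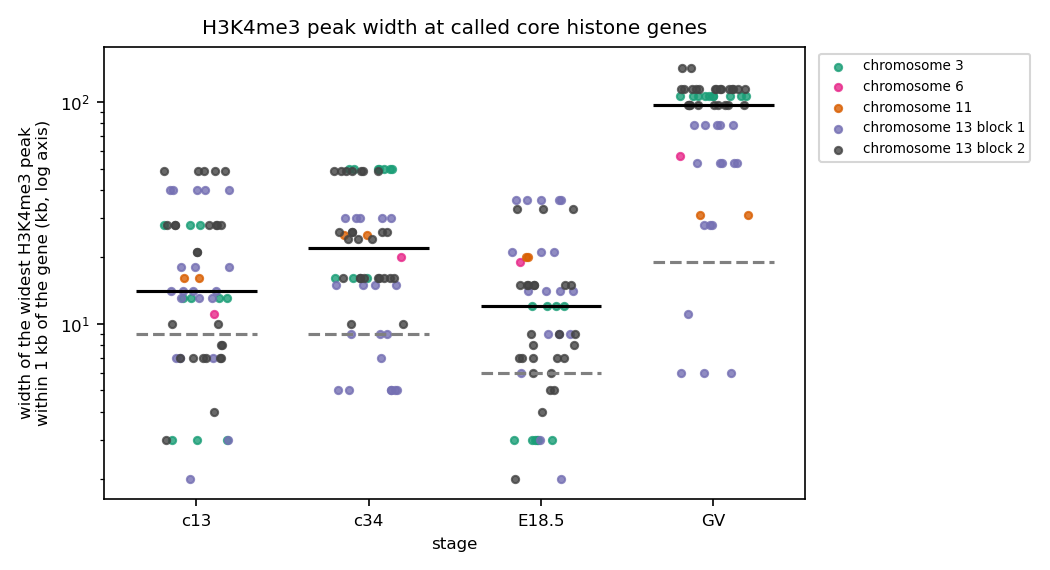
Width in kb, on a log axis, of the widest H3K4me3 peak within 1 kb of each called core histone gene, by stage and coloured by genomic block; points are genes, spread sideways for legibility, solid lines are the members' medians and dashed lines those of all called protein-coding genes. GV points sit mostly between 50 and 143 kb, above most points of the other stages; genes under 1 peak share its value.

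Single genes followed the blocks. On chromosome 3, where H2bc21, H3c13 and the other 8 genes lie, H2bc21 had peaks of 3 kb in c13, 16 kb in c34, 3 kb at E18.5 and 106 kb in GV. The last was 1 peak, chr3:96207001-96313000, over all 10 genes. H3c13 had 28, 50, 3 and 106 kb. In run 3, H4c8 had 49 kb in c13 and in c34, 33 kb at E18.5 and 114 kb in GV, where 1 peak met all 14 genes of the run, reaching only part of the long span of H2bc6. In run 4, H3c2 had 28, 26, 15 and 97 kb, the last under 1 peak over all 10 genes. For both H4c8 and H3c2 the GV peak was the widest of the 4 stages and the E18.5 peak the narrowest.

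The germ cell variants H2ac1 and H2bc1 shared peaks of 8 kb in c13, 16 kb in c34, 6 kb at E18.5 and 143 kb in GV. The 143 kb peak was the widest over any member. H4f16 had 11, 20, 19 and 57 kb, and the chromosome 11 pair 16, 25, 20 and 31 kb. Here too the widest peak was that of GV. At the called genes of block 1 the widest GV peaks were from 6 to 79 kb, with a median of 53 kb, against 97 to 143 kb in block 2. Another GV peak in block 1, chr13:21848001-21946000, was 98 kb wide and lay over no member. H4c18 had 13 kb in c13, 5 kb in c34, 6 kb at E18.5 and 11 kb in GV, so that the widest of its peaks was not in GV. H3c11 had 18, 9, 21 and 28 kb.

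As a share of their length, the blocks of 2 or more genes were covered by H3K4me3 over 77.4% in GV, 31.4% at E18.5, 39.8% in c34 and 37.0% in c13. The chromosomes compared were covered over 24.5%, 5.14%, 9.84% and 9.66% in the same order. The GV coverage also took in the stretches between the chromosome 13 runs, of which 72.1% was covered, against 80.8% of the runs. In the other lists the runs were covered over 52.9%, 48.2% and 42.6% and the stretches between them over 23.8%, 29.6% and 21.8% (c13, c34, E18.5). The stretch between H2bc6 and H2ac6 was an exception in GV, with 3.96% covered.

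H3K27me3 counts ranged more widely over the stages than those of the other marks. It was called at 32 of 61 members in c7, against 46.0% of all protein-coding genes. In c13 it was called at 24, against 60.2%, in c34 at 7, against 43.7%, in E18.5 oocytes at 11, against 39.1%, and in GV oocytes at 0, against 28.3%. The share of members was above that of all genes in c7 and below it in the other 4 lists. Of genes under 1 kb in general, 40.3%, 20.0%, 23.5%, 41.1% and 24.1% were called in c7, c13, c34, E18.5 and GV. Of members under 1 kb, the shares were 52.7%, 38.2%, 10.9%, 18.2% and 0%. These were above the shares of short genes in general in c7 and c13 and below them in c34, E18.5 and GV. The members called lay under 7, 6, 1, 4 and 0 peaks. With peaks under each list's median width left out, the counts in c13, c34 and E18.5 were 10, 0 and 3. Since so few peaks decide these counts, a difference of 1 peak moves a count by up to 17 genes.

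**Figure D3:**
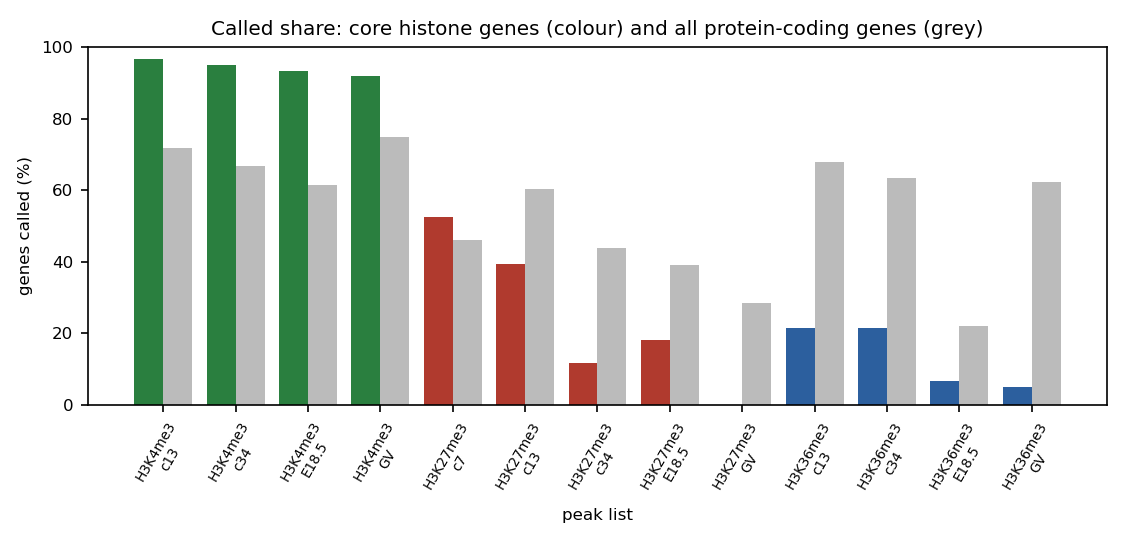
Percent of the 61 core histone genes called (coloured bars) beside the percent of all 21627 protein-coding genes called (grey bars) in each of the 13 peak lists, on an axis from 0 to 100%. The H3K4me3 bars of members stand above the grey bars at all 4 stages, and the H3K36me3 bars stand below them.

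In c7, H3K27me3 covered run 3 and the start of run 4 in a single peak of 210 kb, chr13:23530001-23740000, over 17 genes. Of the 32 genes called, 19 were in block 2, 8 in block 1, 2 on chromosome 3, 2 on chromosome 11 and 1 on chromosome 6. In c13 the peak at this place ran from 23590001 to 23730000 that took in only H2bc6, H2ac6, H2bc4 and H4c3. H2bc6 was called because its annotated span is 37455 bp long and reaches into the peak. The comparison of c7 with c13 found 16 members called in both, as were 7935 of 21627 protein-coding genes. Another 16 were called in c7 and not c13, against 9.34% of all genes. These were 13 genes of run 3, among them H3c4, H3c6, H3c7, H3c8, H2ac7, H2ac8 and H2bc9, and 3 of run 1, H4c18, H2ac24 and H4bc24. In the other direction, 8 were called in c13 and not c7, against 23.6%. All 8 lie on chromosome 3: H2bc21, H3c15, H2ac19, H2ac18, H3c14, H4c14, H3c13 and H2bc18. They share 1 peak of 170 kb, chr3:96180001-96350000, which also holds H2ac21 and H2ac20. In c7 the peak on this side ended at 96220000, inside the block, and another began beyond it at 96280001.

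E18.5 oocytes had H3K27me3 at 11 genes, all 11 of which were also called in c7 and in c13. Of 8446 protein-coding genes called at E18.5, 6788 were also called in c7 and 6332 in c13. The 11 members were H4f16, the 5 genes of run 2 (H2ac12, H2bc12, H4c9, H2ac11 and H2bc11), H2ac6, H2bc4 and H4c3 of run 4, and the pair H2bc1 and H2ac1. Against c13, 13 genes were called in c13 and not at E18.5, against 31.0% of all genes, namely the 10 of chromosome 3, H2bu2, H2aw and H2bc6. None was called at E18.5 and not c13, against 9.77%. Against c7, 21 were called in c7 and not at E18.5, against 14.6%, of which 14 were in block 2, 3 in block 1, 2 on chromosome 11 and 2 on chromosome 3. None was called in the other direction, against 7.67%.

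In c34, H3K27me3 was called at 7 genes of run 1 under 1 peak of 70 kb, chr13:21730001-21800000: H4c11, H4c12, H2ac15, H2bc15, H3c11, H2ac22 and H2bc22. None of these 7 genes was called in any other H3K27me3 list, a pattern of 11.5% of members, all under this 1 peak, against 1.42% of all genes. With only peaks of at least the list's median width, 90 kb, the count in c34 was 0. For H4c11 the nearest peak lay 25.034 kb away in c7, in c13 and at E18.5, and 715.034 kb away in GV. Between c13 and c34 the members called did not share a gene, while 7792 of 21627 protein-coding genes were called in both. There were 24 of 61 members (39.3%) called in c13 and not c34, against 24.2% of all genes, and 7 (11.5%) in c34 and not c13, against 7.67%. The 24 included H2bc4, H2bc21, H3c14, H3c15, H2ac19, H2ac18, H2ac12 and H2aw. Run 1 was covered by H3K27me3 over 57.5% of its length in c34, 14.4% in c7 and 0% in c13, E18.5 and GV. Run 3 was covered over 100% in c7, 34.6% in c13 and 0% in the other 3 lists.

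GV oocytes had no H3K27me3 at any member. The nearest peak lay 309.885 kb from the chromosome 3 block, 25.57 kb from H4f16, 54.809 kb from the chromosome 11 pair, and 695.711 and 461.044 kb from blocks 1 and 2 of chromosome 13. Against c34, 7 genes were called in c34 and not GV, against 18.1% of all genes, and 0 in GV and not c34, against 2.73%. Against E18.5, 11 were called at E18.5 and not GV, against 22.3%, and 0 the other way, against 11.5%. Apart from core and linker histone genes, 9 protein-coding genes lay whole inside the blocks. These genes, such as the sodium phosphate transporter family genes Slc17a1 to Slc17a4 and the iron regulator Hfe, were called for H3K27me3 in 9, 9, 7, 9 and 0 cases in c7, c13, c34, E18.5 and GV. The shares of all protein-coding genes were 46.0%, 60.2%, 43.7%, 39.1% and 28.3%. The absence of the mark in GV thus took in these genes as well. They lie in the same blocks of chromosome 13 as the members, so they are not separate observations. For H3K4me3, 4, 5, 5 and 9 of these 9 were called in c13, c34, E18.5 and GV, against 71.7%, 66.7%, 61.3% and 74.8% of all genes. For H3K36me3 3, 1, 1 and 0 were called, against 67.8%, 63.4%, 22.1% and 62.2%.

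The germ cell variants followed the early stages. H2bc1 and H2ac1 lay under H3K27me3 peaks of 190 kb in c7, 280 kb in c13 and 230 kb at E18.5. In c34 the nearest peak lay 13.725 kb from H2bc1 and 14.437 kb from H2ac1, and in GV 863.725 and 864.437 kb away. H4f16 was under peaks in c7, c13 and E18.5, and 13.993 kb from one in c34. H2aw was under a peak in c7 and c13, and 24.685, 34.809 and 54.809 kb from one in c34, E18.5 and GV.

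Where chromosome 13 carried H3K27me3, it covered, in sum, a larger share of the stretches between the runs of core histone genes than of the runs. In c7 it covered 57.9% of the length of the runs and 82.0% of the stretches between them. The values were 29.1% and 95.3% in c13, 29.9% and 53.3% in c34, and 22% and 77.1% at E18.5. In GV both were 0%. Single runs differed from these sums. Runs 2 and 5 were covered over 100% in c7, c13 and E18.5, as was run 3 in c7. Run 4 was covered over 71.6% at E18.5. In c34 run 1 was covered over 57.5% and the stretch between H2bc6 and H2ac6 over 0%. Over whole blocks of 2 or more genes, coverage was 67.7%, 70.4%, 40.6%, 50.6% and 0% in c7, c13, c34, E18.5 and GV, against 33.9%, 40%, 35.2%, 39.3% and 27.4% of the chromosomes compared. With members joined only up to 100 kb apart, coverage was 21.5% in c34 and 28.5% at E18.5, below that of the chromosomes. In c13 the blocks were covered more than the chromosomes at large, while a smaller share of their core histone genes than of all genes was called. Among genes under 1 kb the order in c13 was the reverse, with 38.2% of members called against 20.0% of all such genes.

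Coverage was also read around the starts of 56 members with a promoter in the table. At the start itself, an H3K27me3 peak was present at 51.8%, 35.7%, 12.5%, 17.9% and 0% of members in c7, c13, c34, E18.5 and GV, against 39.8%, 54.2%, 37.1%, 34.1% and 23.7% of 17273 starts of all protein-coding genes. At 100 kb before the start the members' values were 57.1%, 71.4%, 19.6%, 51.8% and 1.79%, against 40.7%, 53.7%, 40.4%, 38.7% and 25.9% of all starts. At 100 kb after it they were 64.3%, 71.4%, 21.4%, 48.2% and 3.57%, against 40%, 52.9%, 38.9%, 36.3% and 25.9%. At both distances members were thus above all genes in c7, c13 and E18.5 and below them in c34 and GV. In c13 and E18.5 the level at the start was thus well below that 100 kb away on both sides. Read at 40 kb, the start was lower than both sides in c7, c13, c34 and E18.5. The values 40 kb before it were 67.9%, 58.9%, 33.9% and 39.3%, against 40.7%, 54.9%, 40.0% and 38.0% of all starts. Those 40 kb after it were 69.6%, 57.1%, 37.5% and 42.9%, against 38.3%, 50.9%, 36.2% and 33.6%. H3K4me3 had the opposite form in c13, c34 and E18.5, at 91.1%, 89.3% and 87.5% of member starts and 50%, 53.6% and 41.1% of positions 10 kb after them. In GV it was 89.3% at the start and 85.7% at 10 kb after it. For all genes the values at 10 kb after the start were 23.5%, 16.5%, 9.64% and 25.6%. The starts of a run lie close together, so these shares are averages over few regions.

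**Figure D4:**
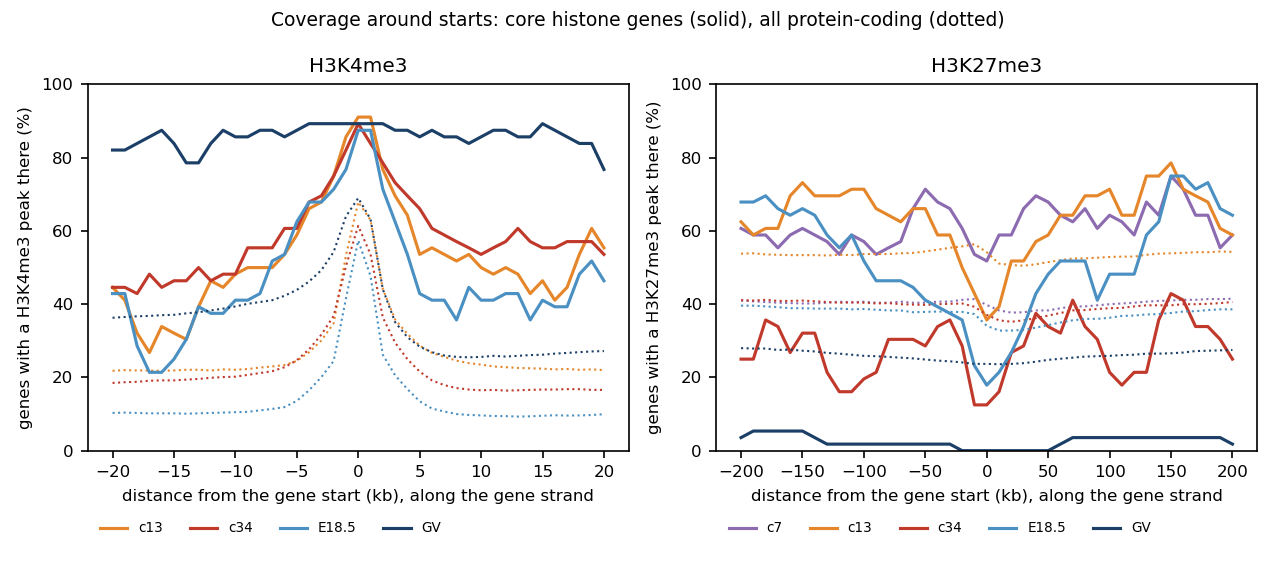
Percent of starts under an H3K4me3 peak (left, within 20 kb) or an H3K27me3 peak (right, within 200 kb) against distance from the start in kb along the gene's strand; solid lines are 56 core histone genes, dotted lines 17273 protein-coding genes, colours are stages. The GV H3K4me3 line of members stays between 76.8 and 89.3%, and the c7, c13, c34 and E18.5 H3K27me3 lines of members have a trough at the start.

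H3K36me3 was rare at core histone genes. It was called at 13 of 61 in c13, against 67.8% of all protein-coding genes. In c34 it was called at 13, against 63.4%, at E18.5 at 4, against 22.1%, and in GV at 3, against 62.2%. The share of members was below that of all genes at each stage. Of all genes under 1 kb, 20.6%, 20.1%, 24.7% and 18.9% were called in c13, c34, E18.5 and GV, below the share of all genes in c13, c34 and GV and above it at E18.5. Of members under 1 kb, 21.8%, 20.0%, 3.64% and 3.64% were called in the same order. This was near the share of all short genes in c13 and c34 and below it at E18.5 and in GV. The members called lay under 3, 3, 1 and 2 peaks, and 44 members (72.1%) were called at no stage, against 14.5% of all protein-coding genes. With members under 1 kb only, the count at E18.5 was 2, and with members by current symbol only, the GV count was 1.

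No gene of block 1 was called for H3K36me3 at any stage. On chromosome 3 all 10 genes were called in c13 and in c34 and none at E18.5 or in GV. In c13 they lay under a peak of 2120 kb, and in c34 under a peak of 220 kb, chr3:96100001-96320000. In GV the nearest peak to the block was 39.885 kb away. The chromosome 11 pair was called in c13, c34 and GV and not at E18.5. H4f16 was called in c13 only, under a peak of 4490 kb. All 13 calls of c13 rest on peaks of 2000 kb or more and none was left without peaks of 1 Mb or more.

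Between c34 and GV, 3 genes were called in both (H2bu2, H2aw and H2bc6), 10 in c34 and not GV, against 6.45% of all genes, and 0 in GV and not c34, against 5.23%. The 10 are the chromosome 3 genes. Between c13 and E18.5 no member was shared, while 2785 of 21627 protein-coding genes were called in both. There were 13 members in c13 and not E18.5, against 55.0%, and 4 in E18.5 and not c13, against 9.24%. The 4 are H2bc6, H2ac6, H2bc4 and H4c3. Between c13 and c34, 12 were shared. H4f16 alone was called in c13 and not c34, against 15.6% of all genes, and H2bc6 alone in c34 and not c13, against 11.2%. Between E18.5 and GV only H2bc6 was shared, with 3 in E18.5 and not GV, against 8.3%, and 2 in GV and not E18.5, against 48.4%. Of the 21627 protein-coding genes, 12325 were shared by c34 and GV, 11304 by c13 and c34, and 2988 by E18.5 and GV.

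The E18.5 H3K36me3 peak at block 2 ran from 23590001 to 23730000, the same edges as the c13 H3K27me3 peak there. In c34 and GV a peak from 23610001 to 23680000 lay between runs 3 and 4 and met H2bc6 alone, through its long annotated span. H2ac6, H2bc4 and H4c3 at E18.5 carried all 3 marks.

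Combining the marks, the H3K4me3-only state dominated. In GV it held for 53 of 61 members (86.9%), against 11.6% of all protein-coding genes, and 3 carried H3K4me3 and H3K36me3, against 46.0%. In c34 38 members had H3K4me3 only, against 3.36% of all genes, 7 had H3K27me3 with it, against 9.5%, and 13 had H3K36me3 with it, against 36.8%. No member carried all 3 marks in c34, against 17% of all genes. In c13 35 had H3K4me3 only, against 7.19% of all genes, 11 had H3K27me3 with it, against 6.93%, and 13 had all 3, against 43.0%. At E18.5 45 had H3K4me3 only, against 33.2% of all genes, and 8 had H3K27me3 with it, against 15.5%. A further 3 had all 3 marks (4.92%), near the 4.35% of all genes, and 1 had H3K36me3 with it, against 8.25%. No member had H3K27me3 or H3K36me3 without H3K4me3 at these 4 stages. Only 2, 3, 4 and 5 members lacked H3K4me3 in c13, c34, E18.5 and GV, so few could have done so. Of all genes, 2.58%, 12.1%, 13.8% and 8.74% had H3K27me3 only in the same order. H3K36me3 only was found at 2.58%, 4.57%, 4.07% and 5.58%, and these 2 marks without H3K4me3 at 7.71%, 5.01%, 5.45% and 2.4%.

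The genes that act on the core histone genes were read from a list of 19. It holds the S phase regulators Npat, Casp8ap2, Hinfp, E2f1, Ccne1, Ccne2 and Cdk2, the octamer factor Pou2f1, and the machinery that trims histone mRNA, such as Slbp, Lsm10, Lsm11 and Zfp473. All 19 were called for H3K4me3 in c13, c34, E18.5 and GV, against 71.7%, 66.7%, 61.3% and 74.8% of all protein-coding genes. H3K36me3 was called at 15, 19, 5 and 18 of them in the same order, against 67.8%, 63.4%, 22.1% and 62.2% of all genes. The E18.5 count was near the share of all genes. The GV exception was Ccne1, cyclin E1. H3K27me3 was called at 7, 11, 3, 5 and 2 in c7, c13, c34, E18.5 and GV, against 46.0%, 60.2%, 43.7%, 39.1% and 28.3% of all genes. The same shares of all genes, mark by mark, stand against the counts of the smaller gene lists below. In c34 the 3 were Srrt, Ccne1 and Hinfp, and in GV the 2 were Ccne1 and Hinfp. Hinfp binds histone H4 promoters.

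The linker histones of the same clusters are H1f1 to H1f6, which bind DNA between nucleosomes. H3K4me3 was called at 6, 6, 6 and 5 of 6 in c13, c34, E18.5 and GV, H1f4 being the one not called in GV. H3K27me3 was called at 4, 2, 2, 2 and 0 in c7, c13, c34, E18.5 and GV, and H3K36me3 at 0, 1, 2 and 1. Of the 4 other linker histones (H1f0, H1f7, H1f8 and H1f10), H3K4me3 was called at 2, 3, 2 and 4, H3K27me3 at 1, 4, 2, 1 and 1, and H3K36me3 at 4, 3, 0 and 3. H1f8, the oocyte linker histone, had H3K4me3 in c34 and GV and not in c13 or E18.5. It had H3K27me3 in c13 and GV.

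The 9 replication-independent core histone variants, such as H2ax, H2az1, H3f3a, H3f3b and the centromeric Cenpa, were called for H3K4me3 in every list. H3K27me3 was called at 2, 7, 4, 1 and 1 in c7, c13, c34, E18.5 and GV, with Macroh2a2 the one in GV. H3K36me3 was called at 8, 8, 0 and 7. The 4 replication-coupled chaperones Asf1b, Chaf1a, Chaf1b and Nasp, which deliver new histones to DNA, were all called for H3K4me3 at the 4 stages and for H3K36me3 in c13, c34 and GV and not at E18.5. H3K27me3 was called at Asf1b and Chaf1b in c13 and at none of the 4 in the other lists. These genes are longer than the core histone genes, so that their H3K36me3 counts are not on the same footing.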

How the data were processed

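The authors deposited 13 peak lists, whose unit is other than a count, that is, the places of peaks in base pairs without score or height. Per the file headers each list gave a chromosome, a start counted from 0 and an end. The submitters' processing notes name MACS2 2.1.1, Bowtie2 2.3.4.1, SICER 0.0.41, bedtools 2.29.2, Trim Galore 0.4.1, SAMtools 1.7, deepTools 3.5.0, cutadapt 1.9.1 and Picard 2.18.23. Which tool called which peaks, at what threshold, with what use of input and whether libraries were pooled is not given in the sources used here. A list can be longer because of depth or threshold.

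Genes came from the RefSeq table of GRCm38.p6. Calls needed at least 1 bp of overlap with the windows described, and positions are 1-based. Coverage shares of the chromosomes run to the last peak of any list. The promoter profile used 1 start a gene. Members, gene lists and comparisons were chosen with earlier results of these data known. Genes named were members whose call differed between compared stages (at most 8 a direction, by covered length within 5 kb of the gene ends), members called always or never, members outside the blocks, and H2ac1 and H2bc1. Others named as examples were chosen after their values were seen. The overlap code was tested on simulated data. Python 3.11.15, numpy 2.4.6, pandas 2.3.3 and matplotlib 3.10.9 were used. Input libraries were not used here. Alternatives changed the window, gene overlap, peak width, block limits and membership.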

Additional observations from a re-analysis of the deposited data

How the results depend on the processing

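Of 139 alternatives, 127 stayed within 1.5 times of the value given and 12 did not. Keeping only the wider peaks, from each list's median width upward, left H3K27me3 calls at 10 members in c13 (24 otherwise), 0 in c34 (7) and 3 at E18.5 (11). Joining members only up to 100 kb apart, which drops stretches between runs, changed the covered share of the blocks for H3K27me3 to 21.5% in c34 (40.6%) and 28.5% at E18.5 (50.6%), which turns both from above to below the chromosomes compared (35.2% and 39.3%). For H3K36me3 it changed to 18.2% in GV (9.68%), 33.4% at E18.5 (17.8%) and 30.2% in c34 (17.3%). The chromosomes compared were covered by H3K36me3 over 37.9%, 24.1% and 35.3% in the same order. The E18.5 share thus turned from below to above the chromosomes, while those of GV and c34 stayed below. Leaving out peaks of 1 Mb or more took H3K36me3 in c13 from 13 members to 0 and the covered share from 14.8% to 7.61%. The following alternatives were chosen after seeing the data: members under 1 kb, members by current symbol, and a window of 1 kb around the start in the promoter table. With members under 1 kb, H3K36me3 at E18.5 fell from 4 to 2 genes, and with current symbols, in GV from 3 to 1. All H3K4me3 counts and coverages stayed within 1.5 times under every alternative run.

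No paired analysis was possible because each stage and mark has 1 list, which carries no replicate numbers. No library was left out, as the lists are not split by library. With read depth unknown, a missing peak and one below the threshold cannot be told apart.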
